A study of Homo sapiens with 2 samples.

Results

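The MYC and MAX network is a set of transcription factors that pair through a basic helix-loop-helix zipper and compete for E-boxes, short DNA motifs at many growth genes. MYC and its relative MYCL activate transcription as dimers with MAX, while MXD1, MXI1, MXD3, MXD4, MNT and MGA bind MAX as repressors. MLX is a MAX-like protein that pairs with some of the same repressors and with the glucose-responsive Mondo factors. The 10 members were taken by gene symbol, and all 10 were found among the 60619 genes of the deposited tables and passed the filter on low counts, which left 13304 genes.

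RNA was sequenced from HBEC-3KT, a line of human bronchial epithelial cells immortalised with CDK4 and TERT constructs. One culture had received a pLenti6 lentivirus with human CBS, which encodes the transsulfuration enzyme cystathionine beta-synthase, and its control had received the virus without an insert. All cells were selected with blasticidin and grown on gelatin as flat cultures, so both groups share the vector backbone and the drug. The stated aim was to learn how CBS expression bears on Polycomb repressive complex 2. Each group held 1 library, with 20785957 counts after CBS transduction and 20433062 counts after empty vector. With no replicates, the conditions could not be tested against each other, and every difference below is between 2 libraries. The tables do not say whether the cells were a clone or a pool.

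CBS itself had 3669 counts in CBS cells and 280 in empty-vector cells. Together with its near-identical copy CBSL, which shares its reads, it was 12.1-fold higher (95% counting interval 11.1 to 13.1). The basal cell genes KRT5, a keratin, and TP63, a p53 relative, had 54419 and 5136 counts in CBS cells, against 83759 and 4946 counts in empty-vector cells. Of the 11 basal markers, 8 had a counting interval below a ratio of 1, 2 above and 1 across it, with a median log2 fold of -0.54. The shares over all genes were 31.1% below and 31.6% above. The keratins KRT14 at -2.15, KRT15 at -1.94 and KRT17 at -1.49 were at least 2-fold lower in CBS cells, against 5.28% of all genes. The nerve growth factor receptor gene NGFR was higher, at 0.93. Markers of other cells were low or mixed. Immune markers summed to 39.7 CPM (library-scaled counts) in CBS cells and 124.4 CPM in empty-vector cells, nearly all from CD68 and CD14, with PTPRC, CD3E and LYZ at 0 counts in both libraries. Fibroblast markers summed to 6.24 CPM in CBS cells and 13.8 CPM in empty-vector cells, with 4 of 7 at 0 in both libraries, COL1A2, COL3A1, DCN and LUM. Endothelial markers summed to 9.80 CPM in CBS cells and 8.94 CPM in empty-vector cells, with members in opposite directions: CDH5 had 87 counts in CBS cells and 7 in empty-vector cells, EGFL7 had 118 in CBS cells and 162 in empty-vector cells, PECAM1 had 1 in CBS cells and 8 in empty-vector cells, and KDR and TEK were at 0 in both. Ciliated markers summed to 13.0 CPM in CBS cells and 38.7 CPM in empty-vector cells. Among them TUBA1A had 145 counts in CBS cells and 703 in empty-vector cells, whereas DNAH5 had 94 in CBS cells and 26 in empty-vector cells and FOXJ1 and DNAI1 were at 0 in both. Secretory markers summed to 22.1 CPM in CBS cells and 20.3 CPM in empty-vector cells. The part of these markers in the results was not tested.

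A copy of the E-box letters CACGTG lay in the RefSeq promoter window of 3 of the 9 members that have one. The window runs from 250 bases before a start site to 50 bases after it, and the motif reads the same on both strands. Among genes that passed the filter and have a window, 12.6% held the motif in at least 1 window, as did 8.78% of all 27293 genes with a window. The stretches around the motif are shown because these are the members that carry the network's own binding letters. They are written 5′ to 3′ on the gene's strand, from GRCh38.p14, with the motif in capitals.
MLX, chr17:42567020-42567085, plus strand: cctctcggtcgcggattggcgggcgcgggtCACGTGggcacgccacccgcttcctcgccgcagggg
MNT, chr17:2401218-2401283, minus strand: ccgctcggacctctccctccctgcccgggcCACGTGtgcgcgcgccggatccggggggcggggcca
MXD4, chr4:2262312-2262359, minus strand: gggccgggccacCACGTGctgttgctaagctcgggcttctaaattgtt
The motif began 50 bases before the start site in MLX, 193 before it in MNT and 238 before it in MXD4. The windows of MYCL, MAX, MXD1, MXD3, MXI1 and MGA held no match to these letters. MYC is the member with no window in the set used, so its promoter was not read. A match describes the letters and is not a measured binding site.

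The repressor arm of the network was lower in CBS cells, while MYC was slightly lower and MAX and MLX were higher by less than 1.5-fold in scaled counts. Of the 6 MAX-binding repressors, 5 had a counting interval below a ratio of 1 and MGA had one that held 1. No member was at least 2-fold higher, against 1.41% of all genes, and 2 members, MXI1 and MXD1, were at least 2-fold lower, against 5.28% of all genes. Across all 10 members, 2 intervals lay above a ratio of 1, 6 below it and 2 held it. Over all genes such intervals were common, 31.6% above and 31.1% below. They cover counting error only, and with 1 library a group the spread between cultures is not known. In bulk RNA, fewer cells that express a gene and less RNA per cell cannot be told apart.

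Among the activators, MYC was by far the most abundant member. The gene (ENSG00000136997, chromosome 8, 127735434 to 127741434, GRCh38) had 4863 counts in CBS cells and 5360 counts in empty-vector cells. Its level was 155 TPM (a transcript level scaled for length and depth) in CBS cells and 168 TPM in empty-vector cells, above 93.2% and 94.2% of the genes kept. The log2 fold, CBS over empty vector after TMM scaling with a prior count of 5, was -0.24 (-0.29 to -0.18). This was a small difference whose interval lay below a ratio of 1, and 29.8% of all genes had a lower fold. MYCL, a MYC relative first found in lung cancer (chromosome 1, 39895426 to 39902256), had 63 counts in CBS cells and 53 in empty-vector cells. Its levels of 1.83 TPM in CBS cells and 1.38 TPM in empty-vector cells were close to the bottom of the genes kept. The log2 fold of 0.14 had a wide interval (-0.40 to 0.71), so a difference was not detectable at this depth. MYCN, the remaining MYC gene and no member, had 0 counts in both libraries.

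MAX, the shared partner of activators and repressors (chromosome 14, 65006174 to 65102695), had 792 counts in CBS cells and 597 in empty-vector cells. Its level was 41.2 TPM in CBS cells and 36.7 TPM in empty-vector cells. The log2 fold by counts was 0.31 (0.15 to 0.47), above that of 78.1% of all genes. The ratio of the TPM values was smaller, 1.12, against 1.24 for the scaled counts.

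**Figure D1:**
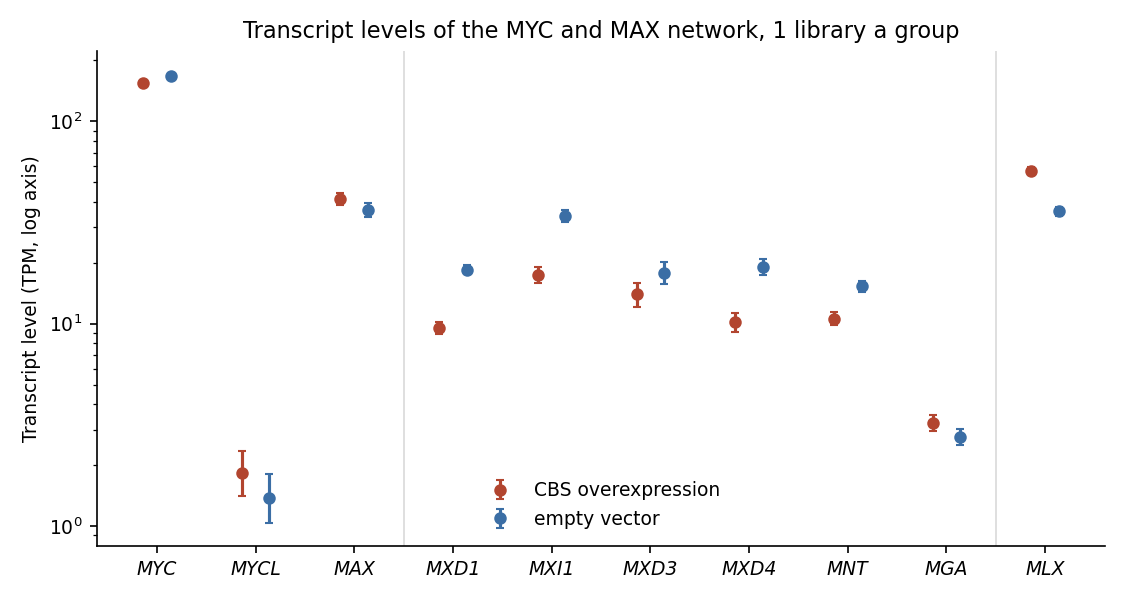
Transcript level in TPM (log axis) of each member in the CBS library (red, left) and the empty-vector library (blue, right), with bars for the 95% Poisson counting interval. The points of MXD1, MXI1, MXD4 and MNT lie clearly apart, with CBS lower, MLX lies apart with CBS higher, and the MYC points differ by 155 against 168 TPM.

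MXI1 and MXD1 stood furthest from a ratio of 1. MXI1 (chromosome 10, 110207605 to 110287365), a repressor of the MXD family that is induced by hypoxia in several human cell types, had 472 counts in CBS cells and 962 in empty-vector cells. Its level was 17.5 TPM in CBS cells and 34.1 TPM in empty-vector cells. The log2 fold was -1.12 (-1.29 to -0.96), and only 4.19% of all genes had a lower one. MXD1 (chromosome 2, 69897688 to 69942945), a repressor that accompanies terminal differentiation of keratinocytes and blood cells, had 766 counts in CBS cells and 1492 in empty-vector cells. Its level was 9.52 TPM in CBS cells and 18.4 TPM in empty-vector cells. The log2 fold was -1.05 (-1.19 to -0.93), below that of all but 4.65% of genes. Both calls sit close to the 2-fold line: the scaled counts of MXI1 and MXD1 were 2.18-fold and 2.08-fold lower, their TPM ratios were 0.513 and 0.516, and with plain library totals only MXI1 was called, 1 member in place of 2, and on log2(TPM + 1) neither was, which left 0 members. The lower value itself was seen with every alternative tried, with log2 folds from -1.22 to -0.92 for MXI1 and from -1.15 to -0.89 for MXD1.

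The other MXD genes and MNT were also lower, by less than 2-fold. MXD4 (chromosome 4, 2247432 to 2262294), a family member found in many tissues, had 308 counts in CBS cells and 526 in empty-vector cells. Its level was 10.2 TPM in CBS cells and 19.1 TPM in empty-vector cells, and its log2 fold was -0.86 (-1.08 to -0.66). MNT (chromosome 17, 2384060 to 2401118), the broadly expressed repressor that opposes MYC in most cells, had 682 counts in CBS cells and 996 in empty-vector cells. With 10.6 TPM in CBS cells and 15.3 TPM in empty-vector cells, its log2 fold was -0.64 (-0.79 to -0.50). With the trend of folds on GC content and length removed it was -0.42, a value outside that interval. MXD3 (chromosome 5, 177301461 to 177312757), the family member linked to dividing cells in S phase, had 210 counts in CBS cells and 273 in empty-vector cells. Its level was 13.96 TPM in CBS cells and 17.9 TPM in empty-vector cells, and its log2 fold of -0.47 (-0.74 to -0.21) was the nearest to 0 of the 5 lower repressors.

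MGA and MLX did not share this direction. MGA (chromosome 15, 41621224 to 41773081), a large protein with a T-box as well as the zipper and a subunit of a variant Polycomb repressive complex 1, had 473 counts in CBS cells and 429 in empty-vector cells. At 3.24 TPM in CBS cells and 2.76 TPM in empty-vector cells, its log2 fold was 0.04 (-0.15 to 0.23), and its sign turned to -0.04 with the GC and length trend removed. MLX (chromosome 17, 42567068 to 42573239) had 1740 counts in CBS cells and 1229 in empty-vector cells. Its level was 56.8 TPM in CBS cells and 35.9 TPM in empty-vector cells, the widest gap upward among the members. The log2 fold was 0.40 (0.30 to 0.51) by counts and 0.65 on log2(TPM + 1).

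**Figure D2:**
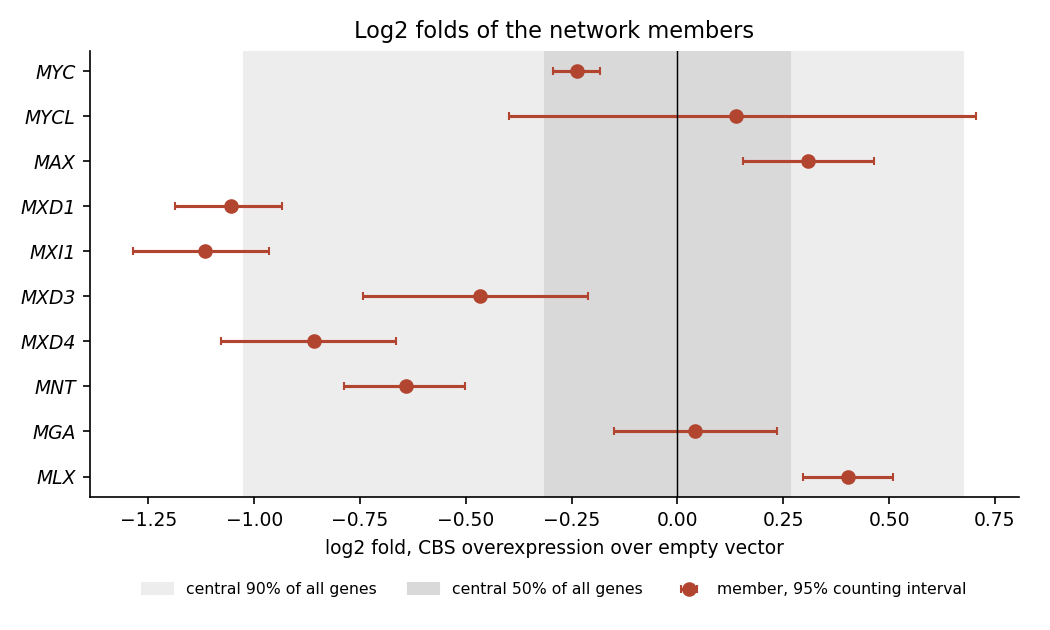
Log2 fold of each member, CBS over empty vector, with 95% counting intervals. The shaded bands hold the central 50% and 90% of the folds of all 13304 genes. MXI1 at -1.12 and MXD1 at -1.05 lie just beyond the wider band, which ends at -1.02, and MAX and MLX lie to the right of the narrower one.

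The order of the levels differed between the libraries in its middle part. In CBS cells the TPM values ran from MYC down through MLX, MAX, MXI1, MXD3, MNT, MXD4, MXD1 and MGA to MYCL, and of the 9 neighbouring pairs only MNT with MXD4 and MXD4 with MXD1 had a ratio whose counting interval held 1. In empty-vector cells the order was MYC, MAX, MLX, MXI1, MXD4, MXD1, MXD3, MNT, MGA and MYCL. There MAX with MLX, MLX with MXI1, MXD4 with MXD1 and MXD1 with MXD3 were not separated beyond counting error. Thus MAX, MLX and MXI1 sat within 34.1 to 36.7 TPM in empty-vector cells, whereas in CBS cells they stood at 41.2, 56.8 and 17.5 TPM.

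Summed over genes, the network held less repressor transcript for each MYC transcript in CBS cells. MYC, MYCN and MYCL together came to 157 TPM in CBS cells and 169.7 TPM in empty-vector cells. The 6 repressors together came to 65.0 TPM in CBS cells and 107.5 TPM in empty-vector cells. The ratio of MYC family to repressors was 2.42 in CBS cells and 1.58 in empty-vector cells, a 1.53-fold higher ratio (95% counting interval 1.43 to 1.64). From scaled counts in place of TPM it was 1.46-fold higher. For each TPM of MAX there were 1.58 TPM of repressors in CBS cells and 2.93 TPM in empty-vector cells. MXI1 alone made up 39.0% of the difference in the repressor sum, MXD1 21.0%, MXD4 20.9%, MNT 11.1% and MXD3 9.14%, while MGA was slightly higher. MXI1 was the largest single share of the repressor sum in both libraries, 26.9% in CBS cells and 31.7% in empty-vector cells. These are ratios of transcripts, and protein levels were not measured.

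**Figure D3:**
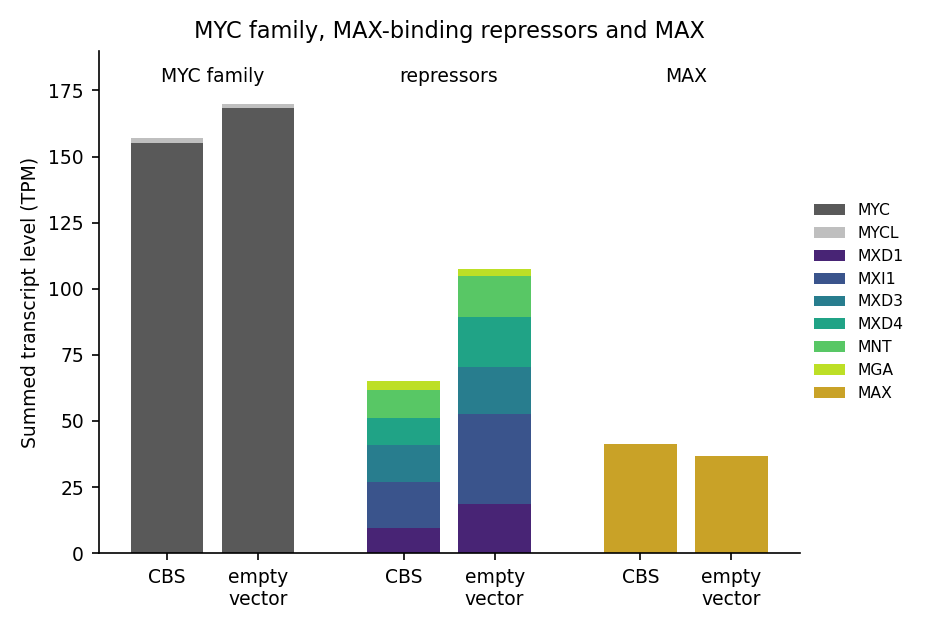
Summed transcript level in TPM of the MYC family, the 6 MAX-binding repressors and MAX, each with the CBS library on the left and the empty-vector library on the right. The repressor bar stands at 65.0 TPM in CBS cells and 107.5 TPM in empty-vector cells, with smaller segments for all repressors except MGA.

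The deposited values also hold a trace of transcript length. An expected count divided by its TPM is proportional to the mean length of the transcripts to which RSEM, one of the tools named in the processing notes, assigned the reads. The ratio of this length between CBS and empty-vector cells, centred on the median gene, lay between 0.855 and 1.21 for the central 90% of the 12411 genes with at least 1 TPM in both libraries. MAX was at 1.20, close to the upper end, and MXD4 was at 1.12. MLX stood at 0.907, MYCL at 0.909, MGA at 0.953 and MXI1 at 0.969, all below the central 50% of genes, which ran from 0.975 to 1.04. MYC at 0.998, MXD3 at 0.999, MNT at 1.003 and MXD1 at 1.01 had nearly the same implied length in both libraries. For MAX and MLX the counts and the TPM values give different sizes of difference with the same sign. Length is not the only reason, since the counts carry TMM scaling and the TPM values do not. MYC, with nearly equal implied length, had a ratio of 0.848 by scaled counts and 0.923 by TPM. GENCODE 29 lists 19 transcripts of MAX and 11 of MLX, and transcript-level values were not used here.

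Shared sequence limits some of these values, since no source used here says whether reads were counted by strand. In GENCODE 29, whose gene coordinates equal the deposited ones for all 10 members, the exons of MXD3 share 1158 bases with PRELID1 on the opposite strand and 926 bases with RAB24 on the same strand. PRELID1 had 6811 counts in CBS cells and 5974 in empty-vector cells, far more than MXD3, so the MXD3 value is uncertain. MLX shares 770 exon bases with PSMC3IP on the opposite strand, which had 287 counts in CBS cells and 264 in empty-vector cells. MXD1 shares 237 exon bases with SNRNP27 on the same strand, with 508 counts in CBS cells and 435 in empty-vector cells. MNT shares 1065 exon bases with an antisense gene that had 79 counts in CBS cells and 44 in empty-vector cells. The antisense genes over MYCL, MAX and MXI1 had at most 1 count in each library.

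The genes beside the members were read for comparison. For each member, the nearest coding gene on each side that passed the filter and did not overlap it was taken, 20 genes in all. None of the 20 was at least 2-fold apart. By this rule 1.41% of all genes were higher and 5.28% lower, so none among 20 is close to the background. Their intervals lay above a ratio of 1 in 8 cases, below it in 7 and across it in 5. The shares over all genes were 31.6% above and 31.1% below. The intervals of MXD1, MXI1, MXD3, MXD4 and MLX overlapped that of neither neighbour. How often this holds over all genes was not counted, and intervals of counting error alone are narrow, so no conclusion is drawn from it. Beside MXD1, GMCL1 was at a log2 fold of 0.31 (0.11 to 0.53) and PCBP1 at 0.23 (0.19 to 0.27). Beside MXI1, ADD3 was at -0.25 (-0.36 to -0.13) and SMNDC1, only 3365 bases away, at 0.08 (-0.06 to 0.23). MNT at -0.64 had the neighbour SGSM2 at -0.44 (-0.57 to -0.31), whose interval overlapped its own, and METTL16 at 0.20 (0.05 to 0.35) on its other side. Beside MXD3, LMAN2 was at -0.13 (-0.18 to -0.07) and NSD1 at 0.38 (0.30 to 0.45). The neighbour furthest from 0 was RAB15 beside MAX, at -0.91 (-1.54 to -0.44), with 45 counts in CBS cells and 83 in empty-vector cells. FUT8, on the other side of MAX, was at 0.48 (0.24 to 0.74).

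**Figure D4:**
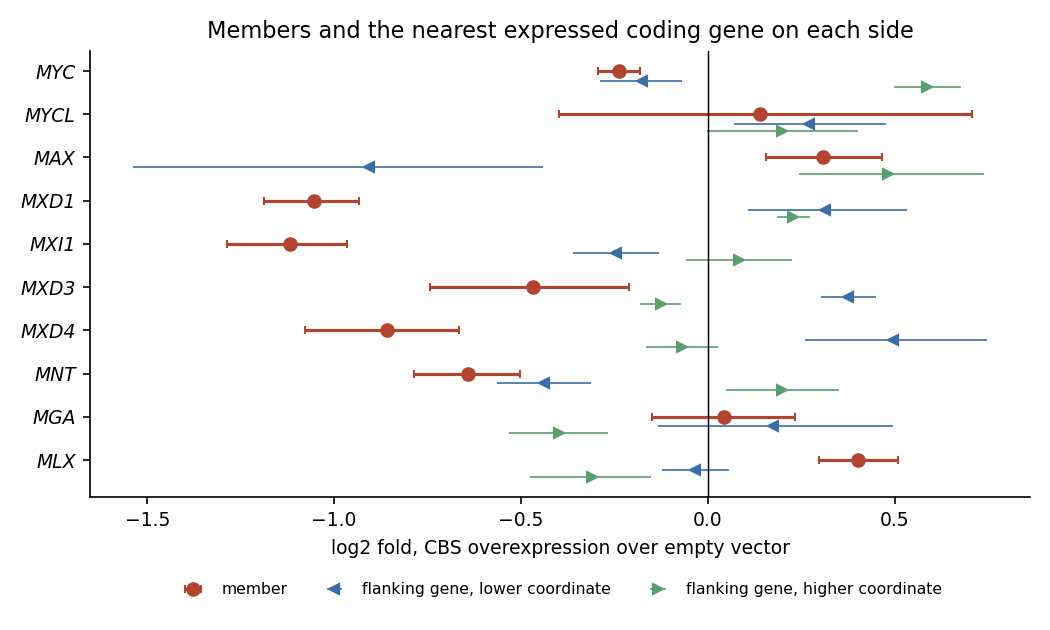
Log2 fold, CBS over empty vector, of each member (circle) and of the nearest expressed coding gene on its lower-coordinate side (left-pointing triangle) and higher-coordinate side (right-pointing triangle), with 95% counting intervals. MXD1, MXI1, MXD3 and MXD4 lie to the left of both neighbours, and MLX lies to the right of both.

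The partners of MLX and the genes they control completed that branch. MLXIP, the Mondo factor that senses glucose phosphate in many cells, had 1800 counts in CBS cells and 1868 in empty-vector cells, with a log2 fold of -0.15 (-0.25 to -0.06) by counts. Its TPM, which carries no TMM scaling, was 21.7 in CBS cells and 20.3 in empty-vector cells, a ratio of 1.07. The median of all genes was also above 0 on log2(TPM + 1), at 0.09, and the implied length ratio of MLXIP was 0.916. MLXIPL, its liver counterpart, had 6 counts in CBS cells and 10 in empty-vector cells and lay below the filter. TXNIP, the arrestin-like inhibitor of glucose uptake that Mondo and MLX dimers switch on, had 1995 counts in CBS cells and 3942 in empty-vector cells. Its log2 fold was -1.08 (-1.16 to -1.003). ARRDC4, a related arrestin and another target of these dimers, had 527 counts in CBS cells and 858 in empty-vector cells, with a log2 fold of -0.80 (-0.96 to -0.64). Both targets were thus lower while MLX transcript was higher. The ARRDC4 window holds the E-box letters 210 bases before its start.
ARRDC4, chr15:97960463-97960528, plus strand: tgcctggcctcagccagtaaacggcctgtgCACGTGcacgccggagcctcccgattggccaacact

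Genes described as induced by MYC were mostly higher in CBS cells. Of 50 such genes, all above the filter, 46 had an interval above a ratio of 1, 3 below and 1 held it, and the median log2 fold was 0.57, against 0.00 over all genes. Over all genes 31.6% of intervals lay above a ratio of 1 and 31.1% below. This list and the others were written with earlier results of these data known, so their counts are descriptions and not tests. Whether MYC accounts for these differences was not tested. CDC25A, a phosphatase that drives entry into S phase, was furthest at 1.38 (1.22 to 1.57), with 988 counts in CBS cells and 351 in empty-vector cells. ODC1, the rate-limiting enzyme of polyamine synthesis, was at 1.11 (1.04 to 1.19), the cyclin gene CCND2 at 1.06 (1.01 to 1.11) and PPAT, the first enzyme of purine synthesis, at 0.96 (0.78 to 1.16). CDC25A, ODC1 and CCND2 were the 3 genes of the list at least 2-fold higher, against 1.41% of all genes. None was 2-fold lower, against 5.28% of all genes. With the GC and length trend removed, CCND2 was at 0.996, just short of that line, and the ribosome factors RRP12 and RRP9 were at 1.03 each, just past it. The 3 members below a ratio of 1 were the glycolytic enzymes LDHA at -0.37 (-0.39 to -0.35) and HK2 at -0.26 (-0.35 to -0.18) and the ribosome factor PPAN at -0.21 (-0.34 to -0.09). PPAN forms a readthrough with its neighbour P2RY11, so its reads may be split. TERT had 73495 counts in CBS cells and 48692 in empty-vector cells, and reads of the immortalising TERT and CDK4 constructs cannot be told from those of the cells' own genes. Without these 2 genes, 44 of 48 intervals lay above a ratio of 1 and the median was 0.58.

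The E-box letters were found in the windows of 21 of the 40 induced genes that have one, 52.5%, against 12.6% of the genes kept. Within the list, the 21 genes with the letters had a median log2 fold of 0.53 and the 19 without them had 0.63. Over all genes with a window, the 1239 with the letters had a median of 0.08 and the 8624 without had 0.01. The stretches of ODC1 and PPAT, among the 4 induced genes furthest from a ratio of 1, are shown for comparison with those of the members.
ODC1, chr2:10448013-10448071, minus strand: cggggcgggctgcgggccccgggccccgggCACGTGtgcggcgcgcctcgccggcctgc
PPAT, chr4:56435762-56435827, minus strand: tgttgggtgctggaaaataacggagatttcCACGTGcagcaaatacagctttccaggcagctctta

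Genes described as repressed by MYC leaned the other way. Of 24 such genes, 21 were above the filter, and 14 of these had an interval below a ratio of 1, 3 above and 4 held it, with a median log2 fold of -0.38. The shares over all genes were 31.1% below and 31.6% above. NDRG1, a stress and hypoxia gene, was lowest at -2.13 (-2.18 to -2.08), with 3927 counts in CBS cells and 16084 in empty-vector cells. GADD45B, a stress-induced growth arrest gene, was at -1.22 (-1.56 to -0.96). TXNIP, listed here as well, was also at least 2-fold lower. Higher members were CAV1 at 0.68, CCND1 at 0.51 and COL4A1 at 0.51. Many of these genes also answer to p53, hypoxia or growth factor signals, so the list is not specific to MYC.

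**Figure D5:**
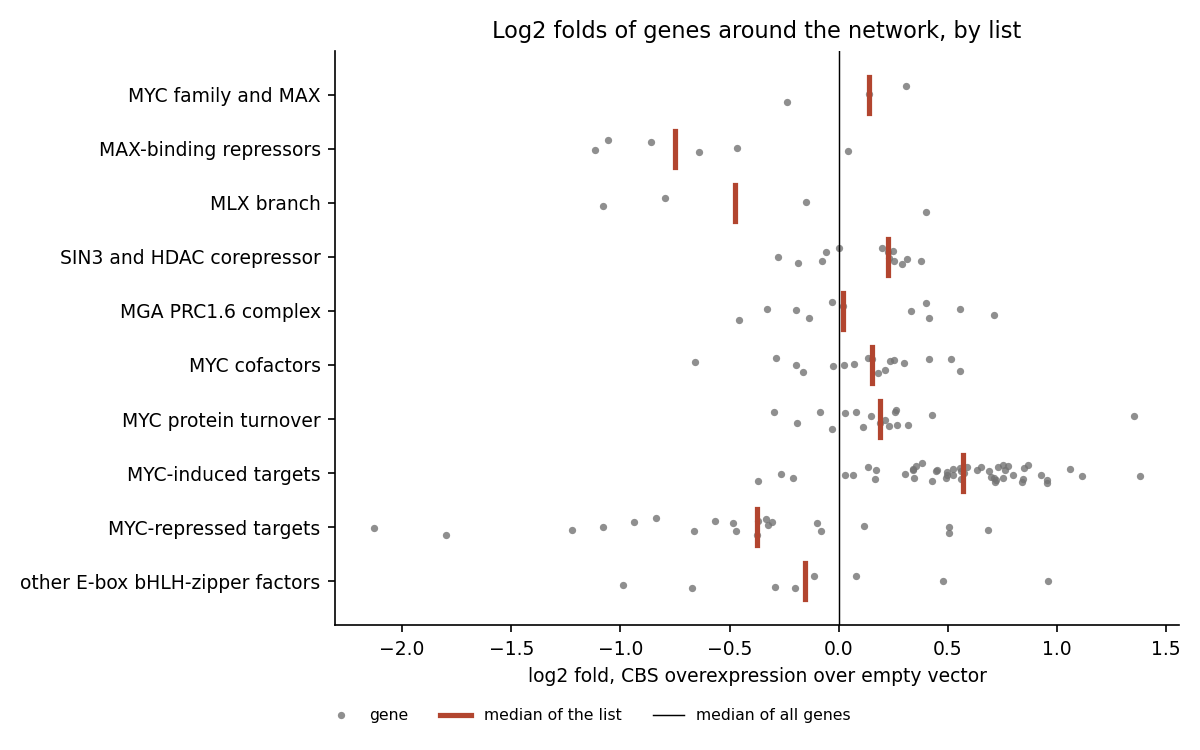
Log2 folds, CBS over empty vector, of the genes above the filter in each list around the network (grey points), with the list's median (red bar) and the median of all genes (black line). The repressor list has a median of -0.75, the MYC-induced list 0.57 and the MYC-repressed list -0.38.

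Lists of cofactors and regulators of the network's proteins had medians between 0.02 and 0.23. With the GC and length trend removed, these medians lay between -0.08 and 0.19. Over all genes the median was 0.00, with 31.6% of intervals above a ratio of 1 and 31.1% below. The 13 genes of the SIN3 and histone deacetylase corepressor, through which MXD proteins and MNT act, had a median log2 fold of 0.23, with 7 intervals above a ratio of 1, 2 below and 4 holding it. RBBP4, a histone-binding subunit, was at 0.38 (0.30 to 0.46), the deacetylase HDAC1 at 0.31 (0.24 to 0.38), SUDS3 at 0.29 (0.15 to 0.44) and SAP30 at -0.28 (-0.50 to -0.06). Partners of MGA in its Polycomb complex had a median of 0.02 over 11 genes, with 5 intervals above and 2 below, including L3MBTL2, a chromatin-binding subunit, at 0.71 (0.54 to 0.89), WDR5 at 0.55 (0.44 to 0.67), PCGF6, the subunit that defines the complex, at 0.42 (0.15 to 0.71) and RING1, a ubiquitin ligase, at -0.46 (-0.58 to -0.33). MYC cofactors had a median of 0.15 over 17 genes, 9 above and 4 below, among them the helicase RUVBL1 at 0.51 (0.41 to 0.62) and EP400, a remodelling ATPase, at 0.41 (0.32 to 0.51). ZBTB17, which encodes the MYC partner MIZ1 used at repressed genes, was at -0.66 (-0.86 to -0.47) by counts. Its TPM was also lower, at 13.55 in CBS cells and 26.11 in empty-vector cells, with an implied length ratio of 1.32.

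Genes acting on MYC protein had a median of 0.19 over 17 genes, 10 above a ratio of 1, 2 below and 5 holding it. SKP2, a ubiquitin ligase subunit that targets MYC and also the cell cycle inhibitor p27, stood apart at 1.36 (1.22 to 1.51), with 1517 counts in CBS cells and 551 in empty-vector cells. SET, which restrains the phosphatase PP2A, was at 0.43 (0.38 to 0.47). GSK3B, a kinase that marks MYC for decay, was at -0.30 (-0.39 to -0.21). The deubiquitinase USP28 was at 0.32 (0.16 to 0.49) by counts. Its TPM showed no such difference, at 15.87 in CBS cells and 15.88 in empty-vector cells, and its implied length ratio was 1.36. None of these 4 lists, the corepressor, the MGA complex, the cofactors and the turnover genes, had a member at least 2-fold lower, and SKP2 was their only one at least 2-fold higher. Over all genes 5.28% were lower and 1.41% higher by this rule. The shares of intervals over all genes were 31.6% above a ratio of 1 and 31.1% below. Other E-box factors outside the network had a median of -0.16 over 8 genes, which changed sign to 0.0081 on log2(TPM + 1). On that scale the median of all genes was 0.09. TFAP4, an E-box factor that MYC induces, was at 0.96 (0.77 to 1.17) with 642 counts in CBS cells and 306 in empty-vector cells. TFEB, a lysosomal regulator, was at -0.99 (-1.21 to -0.79), the lipid regulator SREBF1 at -0.67 (-0.73 to -0.62) and MITF, a TFEB relative, at 0.48 (0.15 to 0.84).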

How the data were processed

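RNA sequencing libraries, 1 per group, were compared, with groups taken from the genotype label. Trimmomatic 0.39, STAR 2.6.1d, RSEM 1.3.2 and GRCh38 appear in the submitters' processing notes without roles. Annotation release and strandedness are not given in the sources used here. Deposited by the authors were expected counts, rounded here to whole numbers, and TPM values. The filter on low values asked for 10 counts in at least 1 library and for a mean CPM of 1 or more. Scaling used TMM factors from edgeR 4.0.16 (1.03 for CBS, 0.975 for empty vector), and no model was fitted. Intervals are exact 95% conditional binomial (Clopper-Pearson) intervals made without the prior count. Exact Poisson intervals are drawn for TPM, and the interval of the ratio of summed TPM uses a normal approximation to counting error. Reads are not independent molecules, so these may be too narrow. Calls needed a 2-fold difference and an interval that excluded 1. Tested on simulated Poisson counts, the model the interval assumes, the interval code recovered known folds. This checks the code and says nothing of the spread between cultures.

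Members and lists were chosen with earlier results of these data known. All members were named, with the genes above the filter in lists of up to 5 genes and, in other lists, up to 4 genes with at least 100 counts and the largest absolute log2 fold. A gene that this rule takes is not reported here. MYCN, MLXIPL, KRT5, TP63, marker genes, genes in overlap or beside members, LDHA, HK2, PPAN, RRP9, RRP12, TERT, CDK4, CAV1, CCND1 and COL4A1 were named outside that rule, after their values were seen. Date-like symbols, 27 in all, were repaired by gene ID, and 1 list gene was matched by an older symbol. Alternatives were DESeq2 1.42.0 size factors, plain totals, log2(TPM + 1), prior counts of 1 and 20, other filters, fold thresholds of 1.5 and 4, and removal of the lowess trend (span 0.3, statsmodels 0.14.6) on GC content and length of the longest GENCODE 29 transcript. Promoter windows came from RefSeq on GRCh38.p14.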

Additional observations from a re-analysis of the deposited data

How the results depend on the processing

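No paired analysis was possible because each group held 1 library, and leaving out a library was impossible for the same reason. DESeq2 size factors and a prior count of 1 moved no value beyond its interval and no count by over 1.5 times. Members called lower were 1 with plain library totals, against 602 of all 13304 genes, and 0 on log2(TPM + 1), against 377. At a fold threshold of 1.5 they were 4, against 1712 of all genes, and at 4 they were 0, against 105. No member was called higher under any of these. With plain totals the log2 fold of MYC was -0.16 and the median of all genes was 0.07, against -0.24 and 0.00 in the main setting. On log2(TPM + 1), which adds 1 TPM and needs no interval, log2 folds were -0.12 for MYC, -0.89 for MXD1, -0.92 for MXI1, -0.49 for MNT and 0.65 for MLX, and medians were -0.27 for the MLX branch, 0.33 for the corepressor, 0.71 for MYC-induced targets and 0.0081 for other E-box factors, a change of sign. The median of all genes was itself 0.09 on this scale, so these values include a shift shared by all genes. With the GC and length trend removed, MNT was at -0.42, the repressor median at -0.57 against -0.75, and the other E-box factors at -0.0094. That last list was at -0.079 without a filter, which adds 1 low gene. The median of the MGA complex changed sign, to -0.08 with the GC and length trend removed and -0.0041 with at least 100 counts. The corepressor median was 0.13 with that trend removed. Genes called higher, 188 of 13304 in the main count, were 121 at a prior count of 20, 934 at a threshold of 1.5 and 23 at 4. They were 466 of 25316 genes without a filter and 112 of 11040 with at least 100 counts. Genes called lower, 703 of 13304 in the main count, were 377 in TPM, 1712 at 1.5 and 105 at 4. They were 1221 of 25316 genes without a filter and 460 of 11040 with at least 100 counts. Leaving TERT and CDK4 out, a choice made after seeing the data, left the MYC-induced median at 0.58. MYCL, with 63 counts in CBS cells and 53 in empty-vector cells, was left out by the 100-count filter, and its depth limits any statement on it. The causes of these shifts were not tested beyond what each setting changes by construction.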
